A study of Homo sapiens with 48 samples.

Results

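The BAG co-chaperone family was followed through 5 of its members, BAG1, BAG2, BAG4, BAG5 and BAG6, and not as a whole. They were chosen by gene name, with the response of BAG1 in the CLIP and WT lines already known. Counts of members below refer to these 5. The expression table held 58870 genes, of which 16697 were abundant enough to be tested, and all 5 members were among them. RNA came from Flp-In 293 T-REx cells, derived from human embryonic kidney and built to take up a transgene at 1 fixed genomic site, and every line carries a stable insert with the CLIP tag. Of the 8 lines, 6 expressed CLIP-tagged UPF1 with the mutations labelled LECY, FE-ER, F192E, E797R, IR-ER and I757R, 1 expressed CLIP-tagged wild-type UPF1 (WT), and 1 carried the CLIP tag without UPF1 (CLIP). The labels LECY, FE-ER and IR-ER are not spelled out and are used as names. Each line received 40 nM of an siRNA against UPF1 (siUPF1) or of a non-targeting siRNA (siNT) and was harvested after 72 h, in 3 biological replicates per group, which gives 16 groups and 48 libraries. The sources used here do not give the promoter of the transgenes, any inducer or whether a line is 1 clone.

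The family is named for the BAG domain. Through it, members such as BAG1 bind the ATPase domain of HSP70 and promote the release of ADP, so that HSP70 lets go of its client protein. The members differ in what else they carry, with ties to the proteasome, to kinases, to death receptors or to membrane-protein sorting. UPF1 is the RNA helicase of nonsense-mediated mRNA decay (NMD), a pathway that degrades mRNAs whose stop codon lies well upstream of the last exon junction, along with a set of normal mRNAs. The comparison of siUPF1 with siNT in lines with mutant UPF1 addresses how a gene responds to the siRNA while a mutant UPF1 transgene is expressed. The transgene was present with either siRNA, and UPF1 protein was not measured here.

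BAG1 (ENSG00000107262.22, hg38 chromosome 9, 33247820 to 33264720, minus strand) had 12 annotated transcripts in GENCODE 29, and 1 of them, BAG1-203, was of the NMD type. Of the 5 members followed, only BAG1 had an annotated NMD transcript, a feature that 42.2% of 13130 coding genes tested had. BAG1-203 has 8 exons and 1396 bases, and 5 of its exons are identical to exons of the 7-exon coding transcript BAG1-202. It holds an exon 3 of 142 bases that BAG1-202 lacks, a length that leaves a remainder of 1 when divided by 3. Its stop codon lies in exon 5, with 3 exon junctions after it, the last of them 262 bases downstream. Of the BAG1 transcripts, 1 holds exactly this exon 3 and 2, BAG1-203 among them, overlap it. The exon is printed first, because BAG1-202 lacks it. The second sequence, 30 bases of exon 5, is printed because it holds the stop codon of BAG1-203, in capitals. The sequences are of GENCODE 29 transcripts on the minus strand, at chr9:33262105-33262246 for the exon and at chr9:33258999-33259028 for the stop codon.
BAG1-203 exon 3: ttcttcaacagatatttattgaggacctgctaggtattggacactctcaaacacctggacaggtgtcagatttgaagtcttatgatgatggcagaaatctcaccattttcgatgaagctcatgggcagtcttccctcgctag
BAG1-203 stop codon: tccacaggaagaggtTGAactaaagaagtt

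The 250 bases before the BAG1 start are printed because the gene CHMP5 starts inside this window on the other strand, at chromosome 9 position 33264879. RefSeq (GRCh38.p14) places the window at chr9:33264709-33264958, minus strand, and capitals mark GGGCGG, the core of a GC box, searched on both strands.
BAG1 promoter: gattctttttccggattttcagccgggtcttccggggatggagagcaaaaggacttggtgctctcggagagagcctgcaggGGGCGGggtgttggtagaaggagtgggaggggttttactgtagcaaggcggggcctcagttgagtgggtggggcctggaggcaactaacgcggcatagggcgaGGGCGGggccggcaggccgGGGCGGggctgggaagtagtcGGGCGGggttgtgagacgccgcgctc

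The window held 4 matches of GGGCGG, a motif found at least once in 42.6% of 35116 promoters of the same length, and its GC content was 65.2% against a median of 58.0%. It held no match of the heat shock motif GAANNTTC, which 5.8% of promoters held, nor of CCAAT (32.0%) or TATAAA (10.7%). RefSeq promoters matched 4 of the 5 members by symbol, and among them BAG2 held 1 match of GAANNTTC and 1 of GGGCGG. BAG5 held 4 matches of GGGCGG at 1 start site and 1 at another, with GC contents of 79.6% and 77.2%. BAG6 held no match of either motif. A match of letters describes the window and no binding was measured.

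The deposited values are per gene, so the reads of exon 3 of BAG1-203 and the share of BAG1-203 in BAG1 RNA were not measured here. BAG1 has 7 coding transcripts. The principal one, BAG1-202, has a 3' UTR of 193 bases and 2 ATG triplets in its 5' UTR, while 53.8% of coding genes have at least 1 such upstream ATG. BAG2 (ENSG00000112208.11, chromosome 6, 57172326 to 57189833, plus strand) has 1 transcript with a 3' UTR of 5643 bases. BAG4 (ENSG00000156735.11, chromosome 8, 38176533 to 38213301, plus strand) and BAG5 (ENSG00000166170.9, chromosome 14, 103556544 to 103562831, minus strand) have 3' UTRs of 2808 and 3276 bases. BAG6 (ENSG00000204463.12, chromosome 6, 31639028 to 31652705, minus strand) has 29 transcripts and a 3' UTR of 103 bases in its principal one. The median 3' UTR in the principal transcripts of the coding genes tested was 1120 bases. By their principal transcripts BAG2, BAG4 and BAG5 lie above it and BAG1 and BAG6 below it. Which transcripts of BAG1 are made was not measured here.

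UPF1 itself was at 20.4 ± 0.92 CPM with siUPF1 and 106 ± 7.45 CPM with siNT in CLIP cells (SD, n = 3 each), where CPM is the count scaled to the TMM-adjusted total of its library. This is 19.3% of the siNT level (log2 fold change −2.37, SE 0.13, adjusted p = 2.1e-17, edgeR quasi-likelihood test). The lines with a UPF1 transgene had group means between 3260 and 4819 CPM, and none of the 7 passed the test for siUPF1 against siNT. Transgene and endogenous reads are summed at UPF1, so the loss of endogenous UPF1 RNA cannot be read in these lines. With siUPF1 the 6 mutant lines differed in their UPF1 level (adjusted p = 0.0107), with LECY the lowest at 3260 ± 223 CPM and FE-ER the highest at 4819 ± 261 CPM (SD, n = 3 each); its part in the results on BAG1 was not tested. Libraries held 6016999 to 14551820 expected counts. Of 5 genes typical of 293 cells all passed the filter on low counts, and of 9 markers of fibroblasts, blood, endothelium, liver and muscle only COL1A1, COL3A1 and PDGFRA did. The 9 markers summed to 4.22 to 13.3 CPM in libraries with siUPF1 and to 6.13 to 11.2 CPM in libraries with siNT, and PTPRC, the pan-leukocyte marker, was at 0 in 21 and 20 of 24 libraries.

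BAG1, which couples HSP70 to the proteasome and binds BCL2, was higher with siUPF1 than with siNT in all 6 mutant lines. Its mean effect over the 6 lines was a 2.12-fold rise (log2 1.08, SE 0.07, adjusted p = 4.21e-16), larger than that of 99.0% of the genes tested. In bulk RNA, more BAG1 RNA in each cell and a larger share of cells that carry it cannot be told apart.

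LECY cells had 171.4, 179.4 and 172.3 CPM of BAG1 with siUPF1, against 58.56, 57.29 and 38.6 CPM with siNT. FE-ER cells had 104.0, 141.2 and 123.0 CPM with siUPF1, against 48.53, 62.21 and 45.52 CPM with siNT. F192E cells had 105.3, 132.7 and 101.7 CPM with siUPF1, against 52.52, 51.32 and 43.55 CPM with siNT. In these 3 lines every siUPF1 library lay above every siNT library, and LECY stood highest with a spread of only 4.39 CPM (SD, n = 3) around its siUPF1 mean of 174.3 CPM. E797R cells had 111.0, 122.9 and 93.23 CPM with siUPF1, against 64.67, 67.37 and 43.07 CPM with siNT. IR-ER cells had 82.02, 113.6 and 82.91 CPM with siUPF1, against 50.87, 63.8 and 44.6 CPM with siNT. I757R cells had 70.29, 83.42 and 60.93 CPM with siUPF1, against 49.05, 54.65 and 38.43 CPM with siNT. The libraries of the 2 siRNAs did not overlap in these lines either, but in I757R the lowest siUPF1 library was only a little above the highest siNT library. Of the 16697 genes tested, 9.56% had no overlap in any of the 6 lines, always in 1 direction, and BAG1 was the only member among them.

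**Figure D1:**
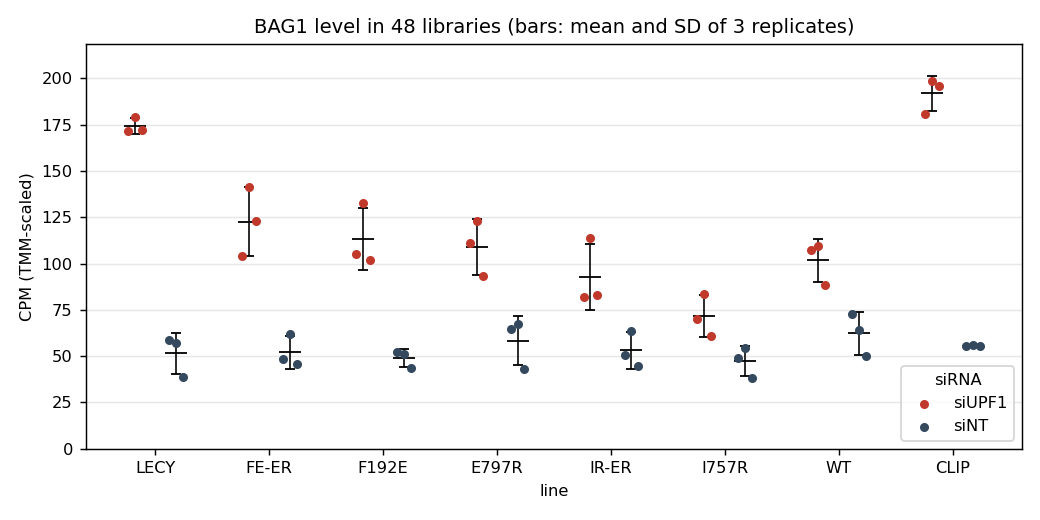
BAG1 level in CPM (vertical axis) in each of the 48 libraries by line (horizontal axis), siUPF1 in red and siNT in blue-grey, with bars for the mean and SD of 3 replicates. The siNT groups lie between means of 47.4 and 62.3 CPM, while the siUPF1 groups spread from 71.5 CPM in I757R to 174 CPM in LECY and 191.9 CPM in CLIP.

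The log2 fold change of BAG1 was 1.76 in LECY (SE 0.18, adjusted p = 3.71e-10), 3.39-fold on the linear scale. FE-ER and F192E had log2 fold changes of 1.24 (SE 0.17, adjusted p = 1.25e-06) and 1.20 (SE 0.17, adjusted p = 1.64e-06). E797R followed with 0.89 (SE 0.17, adjusted p = 0.000257) and IR-ER with 0.81 (SE 0.17, adjusted p = 0.000861). I757R had the smallest, at 0.59 (SE 0.17, adjusted p = 0.016, 1.51-fold). All are from the edgeR quasi-likelihood test with Benjamini-Hochberg adjustment over all genes tested. BAG1 was among 29.4% of genes called in LECY, 18.6% in FE-ER, 21.8% in F192E, 16.1% in E797R, 17.0% in IR-ER and 15.9% in I757R. The call in I757R rested on single libraries: without siUPF1 replicate 2 the log2 fold change was 0.46 (adjusted p = 0.11), and without siNT replicate 3 it was 0.46 (adjusted p = 0.106). Within each of the 3 replicate numbers the siUPF1 library was the higher one in every line, by 1.43-fold to 1.59-fold in I757R and by 2.93-fold to 4.46-fold in LECY.

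The choice of BAG1 used the WT and CLIP lines, so their values are a description. WT cells had 107.4, 109.6 and 88.41 CPM with siUPF1, against 72.73, 63.94 and 50.11 CPM with siNT, a log2 fold change of 0.71 (SE 0.17). CLIP cells, which have no UPF1 transgene, had 181.0, 198.7 and 196.1 CPM with siUPF1, against 55.41, 56.24 and 55.54 CPM with siNT, a log2 fold change of 1.78 (SE 0.17). The 2 siRNAs did not overlap in either line, and the rise was smaller in WT than in CLIP by 1.07 on the log2 scale (SE 0.24). By the same threshold 15.4% of genes in WT and 33.7% in CLIP differed between the siRNAs. In order of the siUPF1 means, I757R (71.5 CPM) and IR-ER (92.8 CPM) came lowest, then WT (101.8), E797R (109.0), F192E (113.2) and FE-ER (122.7), and then LECY (174.3) and CLIP (191.9). Neighbours from IR-ER to FE-ER differed by less than the SDs of 11.7 to 18.6 CPM within these groups. The step from FE-ER to LECY was larger than either group's SD.

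With siNT the 6 mutant lines did not differ detectably in BAG1 (F = 0.73, adjusted p = 1, edgeR), in a test that called 0.0359% of genes. With siUPF1 they differed (F = 13, adjusted p = 1.32e-05), as did 8.62% of genes. The siUPF1 effect itself also differed among the 6 lines (F = 5.73, adjusted p = 0.032), as did that of 1.8% of genes, and BAG1 was the only member called in either test. Without any 1 of the 3 replicate numbers the test of the effect gave F between 3.06 and 5.45 and lost the call, with adjusted p between 0.159 and 0.884. With the replicate number as a block it kept the call (F = 13.8, adjusted p = 7.32e-06), in a test that then called 809 genes, against 301 without the block.

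The BAG1 effect in LECY exceeded that in I757R by 1.17 on the log2 scale (SE 0.24, adjusted p = 0.00351), a difference called for 2.14% of genes. It exceeded that in IR-ER by 0.96 (SE 0.24, adjusted p = 0.0242, 1.93% of genes called) and that in E797R by 0.87 (SE 0.24, adjusted p = 0.0318, 3.78% of genes called). Against FE-ER the difference was 0.52 (95% interval 0.03 to 1.01, adjusted p = 0.552, 0.976% of genes called) and against F192E 0.56 (95% interval 0.07 to 1.05, adjusted p = 0.932, 0.192% of genes called). Neither passed the adjusted threshold, and with the replicate number as a block they came close to it, at 0.53 (adjusted p = 0.0523) and 0.59 (adjusted p = 0.057). The calls against IR-ER and E797R were lost without any 1 replicate number, where the differences were 0.83 to 1.06 and 0.78 to 0.92. The call against I757R was lost without replicate 1 (1.25, adjusted p = 0.154). With the replicate number as a block, the calls against I757R, IR-ER and E797R stood at adjusted p = 1.1e-06, 4.1e-05 and 0.000103. The low-level fibroblast marker COL3A1 had log2 fold changes of −1.02 in LECY (adjusted p = 0.0576), 1.16 in I757R (adjusted p = 0.0255) and 1.48 in E797R (adjusted p = 0.0126). Its differences between lines were not tested, nor was its part in the BAG1 differences.

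No difference in the BAG1 effect was called between FE-ER or IR-ER and the lines whose letters they share. FE-ER minus F192E was 0.04 (95% interval −0.45 to 0.53) and FE-ER minus E797R was 0.35 (95% interval −0.14 to 0.84). IR-ER minus I757R was 0.21 (95% interval −0.28 to 0.71) and IR-ER minus E797R was −0.09 (95% interval −0.58 to 0.41). All 4 had an adjusted p of 1, and 0.0% of genes passed in any of these 4 contrasts. The intervals are wide and do not show that these lines act alike. None of the other 4 members passed in any of the 9 pairs.

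**Figure D2:**
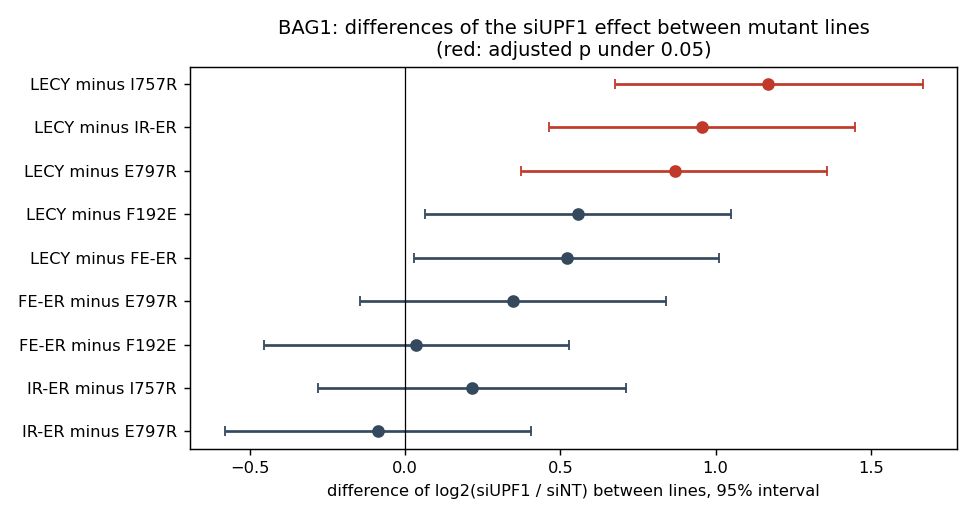
Difference of the BAG1 log2 fold change (siUPF1 over siNT) between pairs of mutant lines (horizontal axis), with its 95% interval, for 9 pairs (vertical axis). The differences of LECY from I757R (1.17), IR-ER (0.96) and E797R (0.87) are in red, and the other 6 did not pass the adjusted threshold.

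BAG4, also called silencer of death domains because it binds TNF receptor family members, went the other way. Its mean effect over the 6 mutant lines was a log2 fold change of −0.20 (SE 0.05, adjusted p = 0.00044), and all 6 estimates were below 0. F192E cells had 62.14, 63.63 and 63.81 CPM with siUPF1, against 81.82, 94.7 and 70.14 CPM with siNT. The libraries did not overlap, which with 3 against 3 is an exact permutation p of 0.1. The share of all genes without overlap in a single line was not counted. BAG4 fell by 0.38 on the log2 scale (SE 0.12, adjusted p = 0.0179), the only call of BAG4 in a single mutant line. Without siNT replicate 2 of F192E it was −0.27 (adjusted p = 0.154). LECY cells had 61.35, 76.47 and 56.45 CPM with siUPF1, against 80.2, 86.34 and 66.83 CPM with siNT. These overlapped, and the log2 fold change of −0.27 did not pass (adjusted p = 0.0883). It passed with the replicate number as a block (adjusted p = 0.00519), without siUPF1 replicate 2 of LECY (−0.41, adjusted p = 0.0183) or without siNT replicate 3 (−0.37, adjusted p = 0.0321). In FE-ER, I757R, IR-ER and E797R the log2 fold changes lay between −0.18 and −0.10 with adjusted p of 0.326 to 0.655. The libraries did not overlap in FE-ER either (exact permutation p = 0.1), and they overlapped in I757R, IR-ER and E797R. As a description, BAG4 had 59.3, 72.21 and 56.98 CPM with siUPF1 in CLIP cells, against 74.89, 92.99 and 80.69 CPM with siNT (log2 −0.40, SE 0.12), and −0.05 (SE 0.12) in WT cells.

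BAG5, which carries several BAG domains and inhibits the refolding activity of HSP70 and the ligase parkin, varied little. Its 48 libraries lay between 77.74 and 98.56 CPM. The siUPF1 libraries of the 6 mutant lines had a lowest, median and highest value of 77.74, 88.03 and 98.56 CPM, against 86.85, 92.9 and 96.95 CPM for their siNT libraries. The mean effect was a log2 fold change of −0.07 (SE 0.03, adjusted p = 0.0327), and no single line passed. Its call was lost without the filter on low counts (−0.09, adjusted p = 0.222), without replicate 1 (−0.07, adjusted p = 0.156) and without replicate 3 (−0.06, adjusted p = 0.234). FE-ER had 77.74, 91.88 and 84.83 CPM of BAG5 with siUPF1, the lowest BAG5 group mean with siUPF1, against 96.95, 93.24 and 94.98 CPM with siNT, the highest with siNT. I757R had 85.26, 91.37 and 87.13 CPM with siUPF1, against 96.42, 91.96 and 94.77 CPM with siNT (log2 −0.10, adjusted p = 0.361). The libraries did not overlap in either line (exact permutation p = 0.1 in each, the lowest possible with 3 against 3). In FE-ER the log2 fold change of −0.17 (adjusted p = 0.0998) passed with the replicate block (−0.17, adjusted p = 0.0418) or without siUPF1 replicate 2 (−0.24, adjusted p = 0.0279).

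BAG2, an inhibitor of the HSP70-associated ubiquitin ligase CHIP (the gene STUB1), had values between 44.94 and 67.84 CPM in the 18 siUPF1 libraries of the mutant lines and between 39.17 and 59.93 CPM in their 18 siNT libraries. The siRNA groups overlapped in every line, and the log2 fold changes were 0.04 in F192E to 0.18 in IR-ER, none called. The mean effect of 0.11 (SE 0.06, adjusted p = 0.151) passed only with the replicate block (0.10, adjusted p = 0.0316). The end of BAG2 overlaps RAB23 on the other strand over 2842 bases, and the strand setting of the counting is not given in the sources used here, so reads of the 2 genes cannot be told apart there. RAB23, a small GTPase, rose in the mean effect (log2 0.20, SE 0.05, adjusted p = 0.000422).

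BAG6, the scaffold of a complex that guards hydrophobic and tail-anchored membrane proteins before they reach the endoplasmic reticulum, overlapped between the siRNAs in most lines. Its mutant-line libraries held 236.6 to 304.9 CPM with siUPF1 and 252.0 to 311.6 CPM with siNT. LECY had 257.8, 236.6 and 239.9 CPM with siUPF1, against 300.4, 265.9 and 286.9 CPM with siNT, without overlap (exact permutation p = 0.1). Its log2 fold change of −0.22 (SE 0.11, adjusted p = 0.144) passed with the replicate block (adjusted p = 0.0106). The other 5 mutant lines lay between −0.07 and 0.00, none called. The mean effect of −0.07 (SE 0.05, adjusted p = 0.21) passed with the block (−0.07, adjusted p = 0.0336) or without replicate 1 (−0.08, adjusted p = 0.0491).

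**Figure D3:**
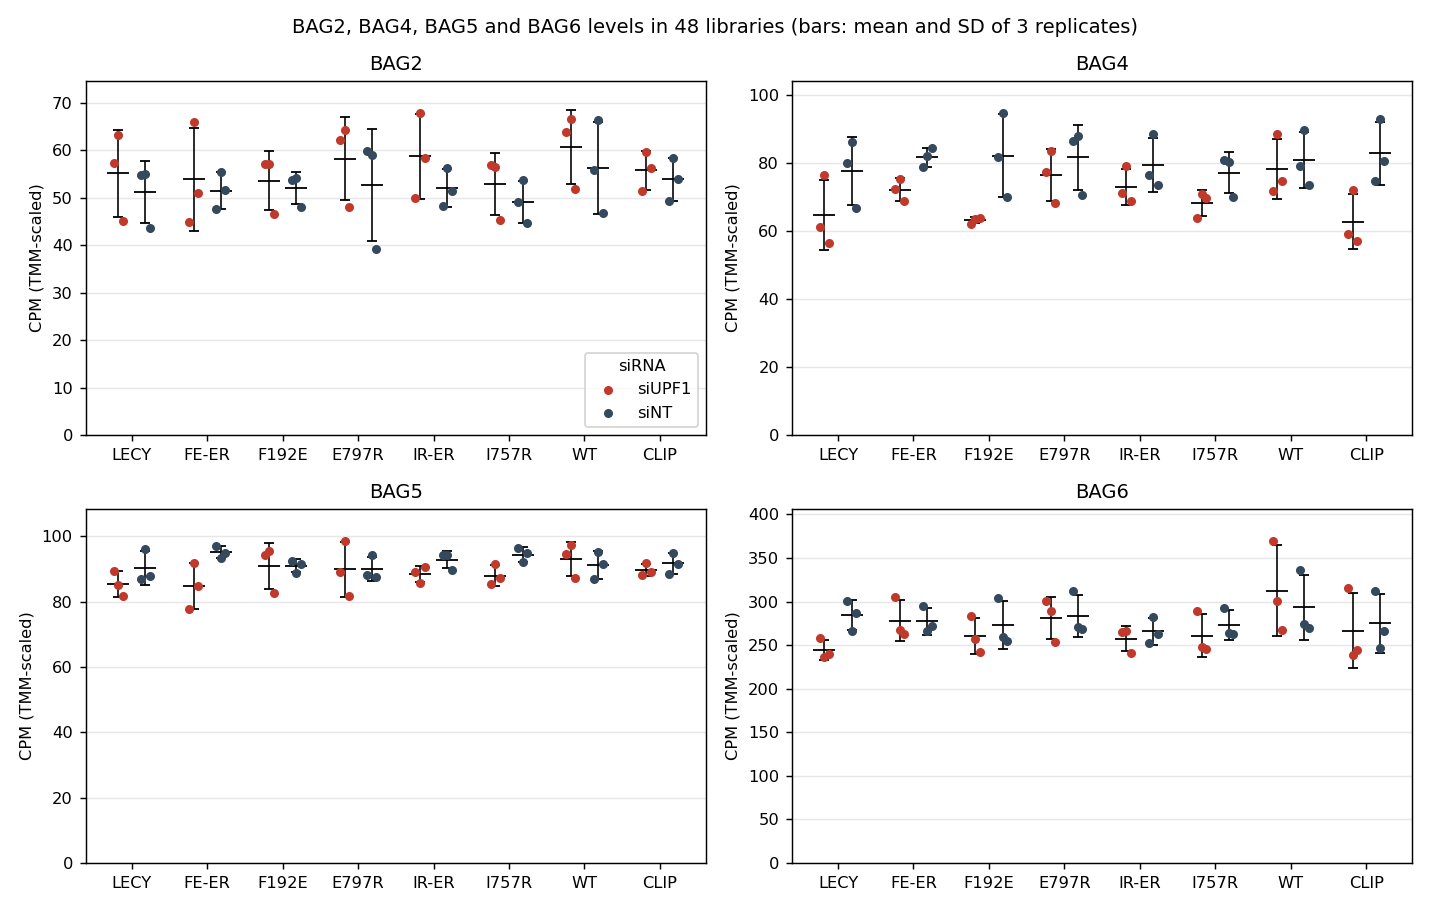
Levels of BAG2, BAG4, BAG5 and BAG6 in CPM (vertical axes) in each library by line (horizontal axes), siUPF1 in red and siNT in blue-grey, with bars for the mean and SD of 3 replicates. BAG4 lies lower with siUPF1 in F192E (63.2 against 82.2 CPM) and CLIP (62.8 against 82.9 CPM), while BAG2, BAG5 and BAG6 overlap in most lines.

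Over all 5 members, the mean effect called 3 (BAG1 higher, BAG4 and BAG5 lower) in a contrast that called 57.0% of all genes, and the median of the 5 log2 values was −0.07, beside 0.00 for all genes tested. In single mutant lines 2 members were called in F192E and 1 in each of the other 5 lines, BAG1 each time. A share near the background of 15.9% to 29.4% would correspond to about 1 of 5 members, so the counts say nothing particular about these 5 genes. Across the 16 group means of log2 CPM, BAG1 ran opposite to BAG4 (Pearson r = −0.81) and BAG5 (r = −0.62) and with BAG2 (r = 0.59), and BAG4 ran with BAG6 (r = 0.63). These values describe groups that share lines and siRNAs.

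**Figure D4:**
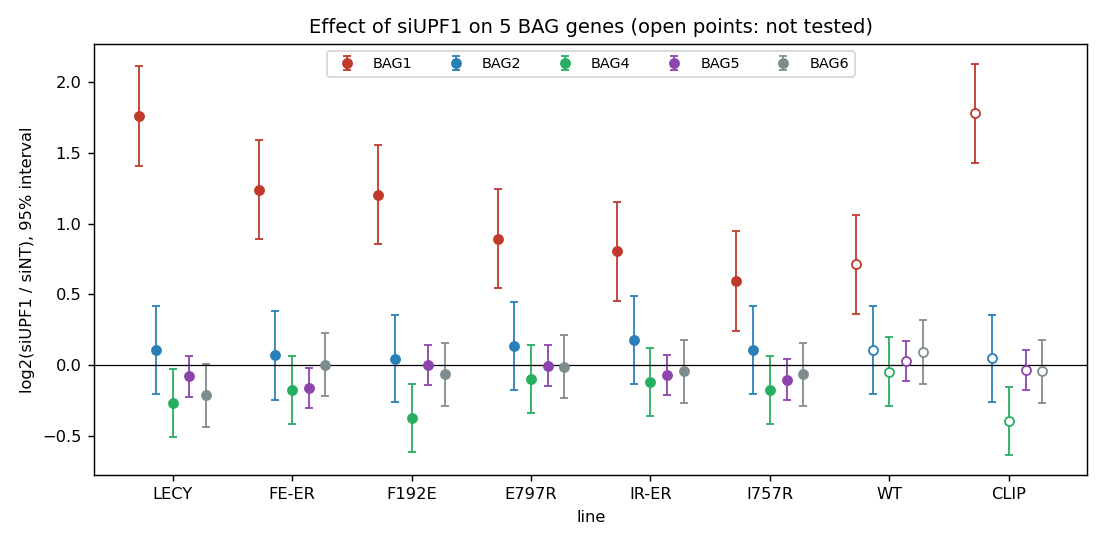
Log2 fold change of siUPF1 over siNT with its 95% interval (vertical axis) for the 5 BAG genes in each line (horizontal axis); open points mark WT and CLIP, which were not tested. BAG1 lies above 0 in all 8 lines, from 0.59 in I757R to 1.78 in CLIP, while the other 4 members stay between −0.40 and 0.18.

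Levels were compared between members per length. With siNT, and per kilobase of all annotated exons, BAG6 had 52.4, BAG5 17.5, BAG4 16.7, BAG2 7.87 and BAG1 7.59 CPM per kb, averaged over the 8 groups. Per kilobase of the principal transcript, BAG6 remained highest at 73.6 CPM per kb, but BAG1 moved to second place at 47.6, since its exons cover 7073 bases in all and BAG1-202 only 1128. The order of BAG1 among the members therefore depends on which transcript is made, which the table does not show.

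The replicate numbers left a shared trace in the members. BAG1 was highest in replicate 2 in all 8 lines with siUPF1, and lowest in replicate 3 in 7 of 8 lines with siNT. BAG2 and BAG4 were highest in replicate 2 in 6 and 7 of 8 lines with siUPF1 and in 7 and 6 with siNT. BAG6 was highest in replicate 1 in 7 of 8 lines with either siRNA. Each replicate number holds both siRNAs of all lines, and the values within a number are those given for BAG1 above.

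The genes around the members gave a further comparison. CHMP5, a subunit of the membrane-remodelling ESCRT-III complex that starts in the BAG1 promoter window on the other strand, fell slightly in the mean effect (log2 −0.17, SE 0.04, adjusted p = 0.000336) and in no single mutant line. Beside a BAG1 log2 fold change of 1.76 in LECY, CHMP5 had −0.24 (adjusted p = 0.0631). LSM1, a decapping cofactor that overlaps the start of BAG4, had a mean effect of 0.08 (adjusted p = 0.352). KLC1, a kinesin light chain that overlaps the start of BAG5, had −0.04 (adjusted p = 0.205), and APOPT1, a gene for a mitochondrial assembly factor that starts within 1 kb of it, rose by 0.16 (SE 0.04, adjusted p = 0.00152). AL139300.1, with a start in the same place, did not pass (adjusted p = 0.0733). SPINK4, ZNF451-AS1, AC084024.2, AL139300.2 and APOM also overlap members and were too low to be tested.

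The genes whose 16 group means most resembled BAG1, among 10398 with at least 10 CPM, were ASCC2 (r = 0.979), HIRA (0.978), SDAD1 (0.976), RETREG2 (0.976) and WDR55 (0.975). Their siUPF1 effects in LECY were 0.62, 0.85, 0.63, 1.22 and 1.07 on the log2 scale, and in I757R 0.32, 0.37, 0.26, 0.55 and 0.33, all smaller than those of BAG1. Among the closest to BAG2 were DDX21 (0.936) and ACTL6A (0.932), to BAG4 PPP6C (0.961), to BAG5 FAM177A1 (0.817) and MED18 (0.812), and to BAG6 C1QBP (0.972) and EIF4G1 (0.956). These are correlations over 16 group means, chosen as the highest of many.

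The wider chaperone system was read in 5 gene lists through the mean effect over the 6 mutant lines, in which the median of all genes tested was 0.00. Of the cytosolic HSP70 and HSP110 genes 8 of 10 were tested: 1 rose, 2 fell and 5 did not pass (median −0.06). HSPA4L, an HSP110 family member, rose (121 ± 8.13 CPM with siUPF1 and 107 ± 7.31 CPM with siNT, SD over 6 line means, log2 0.18, adjusted p = 0.000519), and HSPA2, known from spermatogenesis, fell at low level (2.68 ± 0.82 and 3.35 ± 0.56 CPM, log2 −0.36, adjusted p = 0.0125). The constitutive HSPA8 had −0.18 and did not pass (adjusted p = 0.196), nor did HSPA1A and HSPA1B, near-identical genes whose reads are divided by estimation. HSPA1L and HSPA6 were too low to be tested.

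Of the J-domain co-chaperones, which stimulate the HSP70 ATPase, 2 rose, 2 fell and 4 of 8 tested did not pass (median −0.05). DNAJB6, a suppressor of protein aggregation, rose (172 ± 11.4 CPM with siUPF1 and 140 ± 1.6 CPM with siNT, log2 0.29, adjusted p = 1.44e-06), and DNAJB5 fell (4.28 ± 0.37 and 5.23 ± 0.64 CPM, log2 −0.28, adjusted p = 0.0078). Of 9 other HSP70 and HSP90 co-chaperones 3 rose, 4 fell and 2 did not pass (median −0.05). ST13, the HSP70-interacting protein that stabilises the ADP-bound state and so acts opposite to members such as BAG1, rose in the mean effect (430 ± 20.7 CPM with siUPF1 and 206 ± 5.44 CPM with siNT, log2 1.06, SE 0.03, adjusted p = 2.28e-27). Its rise was close in size to that of BAG1. In LECY, where BAG1 had a log2 fold change of 1.76, ST13 had 1.01 (adjusted p = 2.87e-13). PTGES3, the HSP90 co-chaperone p23, fell (410 ± 22.7 and 552 ± 17.6 CPM, log2 −0.43, adjusted p = 2e-08).

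Of 6 HSP70 genes and exchange factors of the endoplasmic reticulum and mitochondria 4 rose, 1 fell and 1 did not pass (median 0.16). HYOU1, the large exchange factor of the endoplasmic reticulum, rose (312 ± 8.85 CPM with siUPF1 and 182 ± 6.32 CPM with siNT, log2 0.78, adjusted p = 6.03e-17). GRPEL1, the mitochondrial exchange factor, fell (43.1 ± 1.17 and 61.7 ± 3.08 CPM, log2 −0.52, adjusted p = 6.01e-15). Of 7 genes of the BAG6 complex and of tail-anchored protein insertion 2 rose, 2 fell and 3 did not pass (median 0.08). Those that rose were ASNA1, the ATPase that carries tail-anchored proteins (35.9 ± 3.3 CPM with siUPF1 and 24.0 ± 0.72 CPM with siNT, log2 0.57, adjusted p = 5.1e-09), and RNF126, a ubiquitin ligase that works with BAG6 (30.1 ± 2.27 and 20.2 ± 0.85 CPM, log2 0.57, adjusted p = 2.19e-11). The direct partners GET4 and UBL4A had 0.06 (adjusted p = 0.311) and −0.13 (adjusted p = 0.0106). All adjusted p-values are from the edgeR test over all genes, and with 57.0% of genes called in this contrast no list is set apart by its count.

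**Figure D5:**
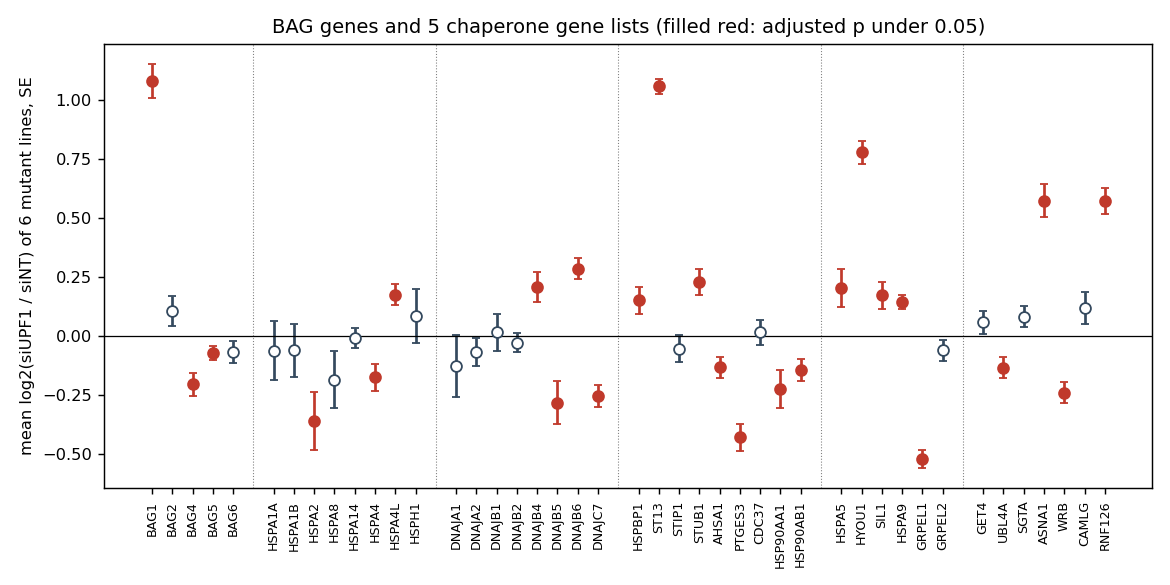
Mean log2 fold change of siUPF1 over siNT in the 6 mutant lines with its SE (vertical axis) for the 5 BAG genes and, after the dotted lines, the tested genes of 5 chaperone lists (horizontal axis, by gene); filled red points have an adjusted p under 0.05. BAG1 (1.08) and ST13 (1.06) lie highest, followed by HYOU1 (0.78), and GRPEL1 (−0.52) lies lowest.

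Of the 5 genes typical of 293 cells, 2 rose and 3 fell in the mean effect. INA, a neuronal intermediate filament gene, fell (37.5 ± 2.94 CPM with siUPF1 and 57.7 ± 3.6 CPM with siNT, log2 −0.62, adjusted p = 9.28e-12), and PAX2, a renal transcription factor, fell (4.07 ± 0.8 and 6.64 ± 0.76 CPM, log2 −0.71, adjusted p = 1.4e-05). Of the fibroblast markers, COL3A1 rose (3.8 ± 1.39 and 2.49 ± 0.77 CPM, adjusted p = 0.00223) and COL1A1 fell (2.19 ± 0.82 and 2.51 ± 0.3 CPM, adjusted p = 0.0417) in the mean effect. By line, COL1A1 passed in LECY (log2 −1.19, adjusted p = 0.0113) and in no other mutant line, and COL3A1 passed in I757R and E797R, upward, while its estimate in LECY was below 0. Differences between lines were not tested for these markers. Their part in the results on the BAG genes was not tested.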

How the data were processed

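The authors deposited RSEM expected counts per gene for 48 libraries of ribosomal RNA-depleted, paired-end RNA sequencing. Cutadapt, STAR, RSEM and DESeq2 and the build hg38 are named, per the submitters' processing notes, without versions. The annotation and strand setting are not given in the sources used here. Of the deposited expected counts 9.16% were not whole, and all were rounded. Genes were filtered with edgeR's filterByExpr (minimum count 10), scaled by TMM, and fitted in 1 model of 16 groups with edgeR 4.0.16 in R 4.3.3 (robust quasi-likelihood). Tests were two-sided with Benjamini-Hochberg adjustment and a threshold of 0.05. SEs are the log2 value over the square root of F, and intervals use the gene's residual degrees of freedom. The fit was tested on simulated data. Libraries held 6016999 to 14551820 counts, which limits low genes most. An exact permutation test of 3 against 3 cannot go below 0.1. Annotation came from GENCODE 29 (16667 of 16697 genes matched) and promoters from RefSeq.

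The members and lists were chosen with earlier results of these data known. In each list the 2 genes with the largest called mean effect are named, with genes of the same pathway added after their values were seen (HSPA8, HSPA1A, HSPA1B, GET4, UBL4A). For likeness 5 genes were named for BAG1 and 2 for each other member, of which 1 is not reported here, and for position the genes that overlap a member or start within 1 kb.

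The replicate numbers come from the titles. Within every line the same-numbered siUPF1 and siNT libraries deviated together (correlations 0.115 to 0.469, against −0.353 to 0.074 for other numbers), so the numbers were taken to pair the samples. The fit without this block is the one reported, so its SEs, intervals and adjusted p-values do not use the pairing. With the block the SE of the BAG1 mean effect was 0.046, against 0.071 without it. Alternatives were RLE factors, DESeq2 1.42.0, no filter, the replicate block, the 6 libraries of a line alone, and leaving out libraries.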

Additional observations from a re-analysis of the deposited data

Results flagged for a closer look

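The BAG1 response to siUPF1 differed between mutant lines in 3 tests of the difference itself, with the edgeR interaction contrast over all genes. The log2 fold change was higher in LECY than in I757R by 1.17 (SE 0.24, adjusted p = 0.00351), and the siUPF1 libraries of the 2 lines lay at 171 to 179 CPM and at 60.9 to 83.4 CPM. It was higher in LECY than in IR-ER by 0.96 (SE 0.24, adjusted p = 0.0242). It was higher in LECY than in E797R by 0.87 (SE 0.24, adjusted p = 0.0318). The calls against IR-ER and E797R were lost whichever replicate number was left out, and that against I757R without replicate 1 (adjusted p = 0.154). With all libraries and the replicate number as a block, the calls against I757R, IR-ER and E797R stood (adjusted p = 1.1e-06, 4.1e-05 and 0.000103). UPF1 itself was lower in LECY with siUPF1 (3260 ± 223 CPM) than in I757R (3909 ± 153 CPM), IR-ER (4081 ± 140 CPM) and E797R (4262 ± 109 CPM; SD, n = 3 each), and its part in these differences was not tested.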

How the results depend on the processing

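Of 915 recomputed values of single members, 10 came to pass the threshold, 16 no longer passed it and 889 were counted as unchanged. Unchanged values stayed on the same side of the threshold. Those of WT and CLIP, which were untested, moved by less than the SE of the reported contrast times the square root of 3. Of the 825 log2 values among the 915, 66 changed sign or came to 0, none with a call in either fit, at sizes of up to 0.14 as reported and 0.11 as recomputed. With the replicate block, FE-ER had 2 members called, LECY 3, the mean effect 5, and BAG4 differed among the siUPF1 groups (F = 3.7, adjusted p = 0.0364); no other call of a member changed. Counts of all genes under the block were 5773 in F192E (3648 without it), 5192 in FE-ER (3110), 4583 in E797R (2682), 4715 in IR-ER (2839), 4756 in I757R (2658) and 4356 in WT (2572). Differences from LECY then called 146 genes for F192E (32), 500 for FE-ER (163), 915 for I757R (358), 903 for IR-ER (323) and 1580 for E797R (631). The tests among the 6 lines called 31 genes with siNT (6), 3291 with siUPF1 (1439) and 809 for the effect (301). With the 6 libraries of a line alone, 1164 genes were called in WT, 1306 in I757R and 1334 in E797R. Without the filter 78 genes were called for LECY minus F192E, 164 among siNT groups, 493 for the effect among lines, and 25 to 32 in the 4 other pairs, which called 0 genes in the reported fit. With the block FE-ER minus F192E called 3 genes and FE-ER minus E797R 17, and without replicate 1 IR-ER minus I757R called 4. DESeq2 called 77 genes for LECY minus F192E, and 1 each for FE-ER minus F192E and minus E797R. Without 1 replicate number, LECY called 1 to 2 genes against F192E, 49 to 63 against FE-ER, 113 to 137 against I757R, 112 to 137 against IR-ER and 224 to 308 against E797R, and the tests among lines 1 to 4 with siNT, 535 to 879 with siUPF1 and 81 to 105 for the effect. Leaving out 1 library at a time, the BAG1 effect in I757R ranged over 0.46 to 0.71, and members called ranged over 1 to 2 in F192E, FE-ER and LECY and 0 to 1 in I757R. Leaving out 1 replicate number, the BAG1 effect in LECY exceeded that in I757R by 1.03 to 1.26, in IR-ER by 0.83 to 1.06 and in E797R by 0.78 to 0.92, and the F of the effect among lines was 3.06 to 5.45. The call against I757R was lost without replicate 1 (adjusted p = 0.154), and those against IR-ER (adjusted p = 0.071 to 0.333) and E797R (0.0822 to 0.325) whichever number was left out. Fewer libraries leave these contrasts 2 replicates. Members had 271 to 4097 expected counts per library.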
